A study of Mus musculus with 8 samples.

Results

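The 9 genes described here encode subunits of the voltage-gated sodium channel: the 6 pore-forming alpha subunits Scn1a, Scn2a, Scn3a, Scn8a, Scn9a and Scn10a, and the 3 auxiliary beta subunits Scn2b, Scn3b and Scn4b. They are 9 of the 32285 genes in the count matrices. They were picked by name from the family with earlier results of these data known: Scn10a was chosen for its level in 1 strain, PWK/PhJ, so its values across strains are a description with no test. The study measured nuclear RNA and open chromatin in the striatum, the input nucleus of the basal ganglia, of 32 mice aged 12 weeks. The mice came from 8 inbred strains, A/J, C57BL/6 (named C57BL/6J in the study's design and C57BL/6NJ in its table of nuclei), 129S1/SvImJ, NOD/ShiLtJ, NZO/HlLtJ, CAST/EiJ, PWK/PhJ and WSB/EiJ, with 4 mice each. Nuclei of 1 mouse of every strain were pooled in each of 4 batches, and the labels name no treatment. The authors assigned 55672 nuclei to a strain and to 18 clusters.

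A voltage-gated sodium channel opens when the membrane depolarises and carries the inward current of the action potential. Each channel is an alpha subunit, which forms the pore, with beta subunits that alter gating and link the channel to adhesion molecules and the cytoskeleton. Scn1a, Scn2a and Scn8a encode the main alpha subunits of the adult brain, Scn3a is known best from the developing brain, Scn9a and Scn10a are known best from peripheral sensory neurons, and Scn4b is abundant in the spiny projection neurons that make up most of the striatum.

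Promoter sequences are shown for some members whose strain pattern or open chromatin the results below turn on, with none available for Scn3a and Scn3b. Each is the stretch of 250 bases before a RefSeq transcription start (GRCm38.p6, the C57BL/6J reference, so not the sequence of the other strains), written 5′ to 3′ on the gene's strand. Capitals mark a TATAAA or CCAAT motif on either strand, and a run without capitals holds none of the motifs searched. Scn10a lies at chr9:119719033-119719282 on the minus strand and Scn9a at chr2:66634963-66635212 on the minus strand. The starts used for these genes are internal, since the RefSeq genes reach to chr9:119719322 and chr2:66635114. The Scn10a window thus lies within its gene, as does part of the Scn9a window. Scn2b lies at chr9:45117626-45117875 and Scn4b at chr9:45138374-45138623, both on the plus strand.
Scn10a: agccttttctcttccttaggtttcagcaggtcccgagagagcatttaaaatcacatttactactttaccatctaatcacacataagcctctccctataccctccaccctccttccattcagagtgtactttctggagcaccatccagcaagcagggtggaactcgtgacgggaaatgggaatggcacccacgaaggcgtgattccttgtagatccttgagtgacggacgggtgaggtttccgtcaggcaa
Scn9a: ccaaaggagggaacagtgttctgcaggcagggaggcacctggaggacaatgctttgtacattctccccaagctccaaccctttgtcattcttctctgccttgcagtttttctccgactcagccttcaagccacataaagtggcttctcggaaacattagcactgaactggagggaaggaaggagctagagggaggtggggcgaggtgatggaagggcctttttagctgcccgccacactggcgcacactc
Scn2b: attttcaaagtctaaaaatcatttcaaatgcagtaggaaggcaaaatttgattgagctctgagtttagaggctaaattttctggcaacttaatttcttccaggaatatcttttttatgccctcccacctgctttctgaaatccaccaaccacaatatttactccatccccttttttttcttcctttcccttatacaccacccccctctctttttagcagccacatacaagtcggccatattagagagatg
Scn4b: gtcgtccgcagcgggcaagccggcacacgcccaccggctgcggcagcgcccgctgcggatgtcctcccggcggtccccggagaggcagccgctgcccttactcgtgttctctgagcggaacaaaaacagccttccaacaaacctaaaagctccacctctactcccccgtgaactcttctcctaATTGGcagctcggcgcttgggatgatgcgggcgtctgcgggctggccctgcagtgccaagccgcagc

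Of the motifs searched, TATAAA (the TATA box) was present in 12.4% of all 32851 RefSeq windows of this length, CCAAT in 33.8%, GGGCGG (the GC box) in 32.7% and TGACGTCA (the cyclic AMP response element) in 1.55%. The Scn10a, Scn9a and Scn2b windows held none of them, and the Scn4b window held CCAAT. The authors' list of 291715 open chromatin peaks was made once for the whole series, so it shows where chromatin was open in some nuclei and not in which strain. A peak overlapped the stretch from 250 bases before to 50 bases after the start of Scn9a and of Scn2b, as it did for 53.1% of all promoters. No peak overlapped that stretch of Scn10a, where the nearest peak centre lay 1970 bases upstream, or of Scn4b, where it lay 1218 bases downstream. CG dinucleotides numbered 23 in the Scn4b window and 8 in that of Scn10a, against a median of 6.00 over all windows. The bodies of the genes also differed in peaks: Scn10a (chr9:119608456-119719322, beside Scn11a) held 16 peaks, or 14.4 per 100 kb. Scn9a (chr2:66480080-66635114) held 6.45 per 100 kb, below the lower quartile (11.2) of the 2426 protein-coding genes of at least 100 kb.

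Drd1 was highest in the cluster named Drd1+ neuron (219 CPM: counts of the gene per 1000000 counts of the summed nuclei) and Drd2 in the cluster named Drd2+ neuron (437 CPM), the direct and indirect pathway projection neurons. A further cluster, Drd1+ neuron_2, was highest for Otof, Casz1 and Col11a1, markers of the eccentric spiny neurons. Not every marker followed the names: Rgs5, a mural cell gene, was highest in endothelium (1854 CPM, against 403 in mural cells), and Pdgfra, a gene of oligodendrocyte precursors, in fibroblasts (347 CPM). Sums over the nuclei of 1 mouse held 1710451 to 9416806 counts in Drd1+ neurons and 1251786 to 6803437 in Drd2+ neurons. Batch 3 was the shallowest, with a median of 3232 counts per nucleus against 4593 to 4931 in the other batches, and batch was a term of the fits unless stated otherwise. The A/J mouse of batch 2 gave 4416 nuclei and the others 944 to 2129. In all, 1517 barcodes occurred in more than 1 pool. The mice fell apart by the summed counts of the Y-linked genes: 18 of 32 mice had 1967 to 8182 and the others 16 to 71. The study's design gives 4 males to a batch, whereas 5 mice of batch 1 and 5 of batch 2 were in the high range.

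Scn10a, the tetrodotoxin-resistant channel of nociceptors, was found almost only in PWK/PhJ mice and there in both kinds of projection neuron. Levels of single mice and strain means, here and below, are CPM scaled as in the fits (by TMM, over the tested genes of the cluster), while ratios of pooled counts, pooled levels, marker sums and levels by cluster are unscaled. In Drd1+ neurons the PWK/PhJ mice of batches 1 to 4 had 15.9, 12.1, 10.5 and 5.53 CPM, a mean of 11.0 ± 4.31 (SD, n = 4), and unscaled 15.6, 12.5, 10.9 and 5.84. In Drd2+ neurons they had 14.9, 16.4, 7.24 and 11.3 CPM, a mean of 12.5 ± 4.08 (SD, n = 4), and unscaled 14.6, 16.7, 7.51 and 12.1. Every PWK/PhJ mouse was above every mouse of the other strains in both clusters. Summed Y-linked counts were 4221 and 2070 in the PWK/PhJ mice of batches 1 and 3 and 57 and 46 in those of batches 2 and 4.

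**Figure D1:**
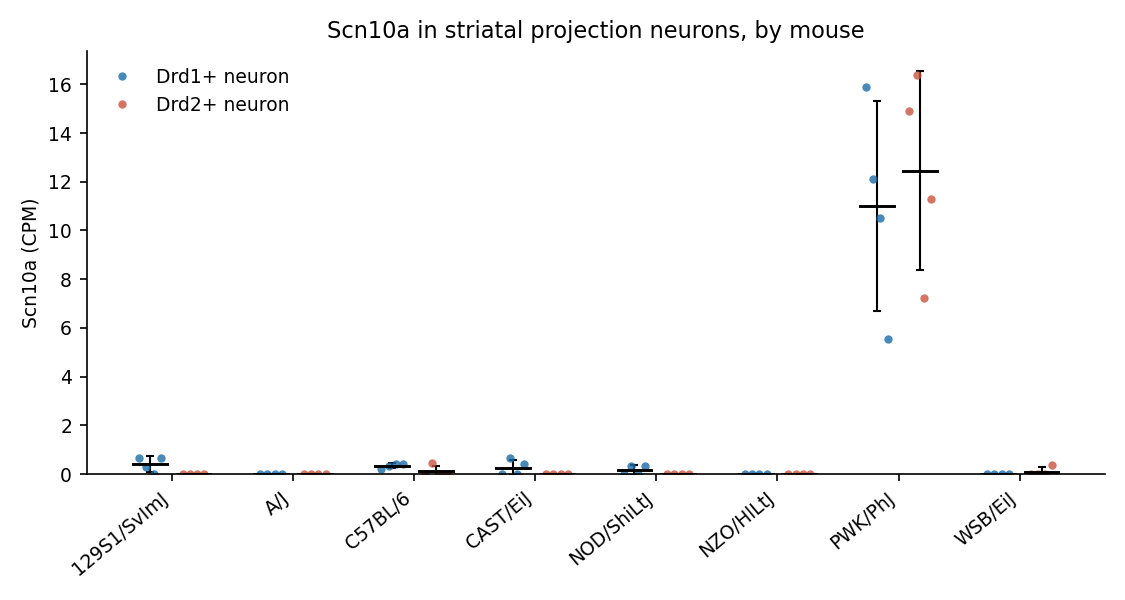
Scn10a CPM (vertical axis) of each of the 4 mice of each strain (points) in Drd1+ and Drd2+ neurons, with the mean and SD (black). The 4 PWK/PhJ mice lie between 5.53 and 16.4 CPM and all other mice lie near 0.

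These levels rest on few molecules. The PWK/PhJ Drd1+ nuclei held 135 Scn10a counts (57, 35, 25 and 18 in batches 1 to 4) and those of the other 7 strains together 15, a ratio of CPM of 70.1 (95% exact interval 41.0 to 129, for counting error only). In Drd2+ neurons the counts were 113 (39, 35, 12 and 27) and 2, a ratio of 479 with a wide interval of 129 to 4001. Over all clusters PWK/PhJ held 268 of the Scn10a counts and the other strains 35, so that 88.4% came from PWK/PhJ. The few counts elsewhere were not in 1 strain: in Drd1+ neurons 129S1/SvImJ had 6, C57BL/6 had 4 (1 in each of its 4 mice), CAST/EiJ had 3, NOD/ShiLtJ had 2, and A/J, NZO/HlLtJ and WSB/EiJ had 0. A count of 0 in the Drd1+ nuclei of A/J, the deepest of these, allowed up to 0.146 CPM.

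Most projection neurons of PWK/PhJ yielded no Scn10a molecule at this depth. Of 1882 PWK/PhJ Drd1+ nuclei 117, or 6.22% (95% exact Clopper-Pearson interval 5.17 to 7.40%), had at least 1 count, at a median of 5892 counts per nucleus. Of 1556 Drd2+ nuclei 99, or 6.36% (5.20 to 7.69%), did, at a median of 5365. In the mice of batches 1 to 4 the share in Drd1+ nuclei was 9.04, 7.08, 4.90 and 3.45%, and in Drd2+ nuclei 7.11, 8.72, 3.05 and 6.35%. The intervals above cover counting error over pooled nuclei and not the spread between mice, and in both clusters some of these mice lay outside them. The counts were spread thinly: 102 of the 117 positive Drd1+ nuclei had 1 count, 12 had 2 and 3 had 3. When every nucleus was thinned to 2000 counts, which left out 16 shallower Drd1+ and 30 Drd2+ nuclei, the shares were 2.20 and 2.03%.

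Glial nuclei of the same PWK/PhJ mice had few or no Scn10a counts, at a lower depth than the neurons. Scn10a was found in 2 of 1249 oligodendrocytes (0.160%, median of 1535 counts), in 0 of 478 astrocytes (which allows up to 0.628%, median of 2199.5 counts) and in 0 of 372 macrophages (up to 0.806%, median of 1353 counts). These shares are not set against those of the neurons because the depths differ. Per count, the 3 glial types pooled had 0.549 CPM (exact interval 0.0664 to 1.98), below the 5.84 to 16.7 CPM, unscaled, of the projection neurons of single PWK/PhJ mice. Among the other clusters of PWK/PhJ, Drd1+ neuron_2 had 7 counts in 5 of 216 nuclei (6.81 CPM, 2.74 to 14.0). The rest of that cluster's Scn10a counts were 2 in A/J (2.09 CPM, 0.253 to 7.53) and 2 in NOD/ShiLtJ (2.65 CPM, 0.321 to 9.57). Both of these intervals overlapped that of PWK/PhJ. Nxph1+ interneurons of PWK/PhJ had 1 count in 147 nuclei (1.49 CPM, 0.0376 to 8.27), an interval that reaches into the range of the projection neurons. The excitatory Slc17a7+ neurons of PWK/PhJ, the nuclei of which were deeper (median of 8074 counts), had 0 in 85, which allows up to 3.53% or 4.14 CPM. Pooled over the PWK/PhJ mice, Drd1+ neurons stood at 11.4 CPM (9.56 to 13.5) and Drd2+ neurons at 13.2 CPM (10.8 to 15.8). Endothelium had 7 counts in 5 of 79 nuclei (16.8 CPM, 6.75 to 34.6). Mural cells had 3 counts in 2 of 38 (20.9 CPM, 4.30 to 61.0). The levels of endothelium and mural cells were thus higher, with intervals that overlapped those of the neurons. Endothelium and mural cells also held projection neuron transcripts: Ppp1r1b, Bcl11b, Pde10a and Rgs9 summed to 2052 CPM in PWK/PhJ endothelium and 3493 CPM in its mural cells. The sum was 4222 in Drd1+ neurons and 295 to 440 in the 3 glial types. It was 1529 CPM in ependyma, 1336 in Slc17a7+ neurons and 1152 in Slc17a7+ neuron_2 of PWK/PhJ. These last clusters had 0 Scn10a counts, which allows up to 29.4, 4.14 and 8.37 CPM. The part of projection neuron transcripts in the Scn10a counts was not tested.

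The summed level of other sensory neuron genes overlapped between PWK/PhJ and the other strains. Isl1, which Drd1+ neurons also express, was left out of the sum (23.2 CPM in PWK/PhJ and 23.7 in the other strains in Drd1+ neurons). The summed CPM of the other 12 genes (among them Trpv1, Calca, P2rx3 and Scn11a) was 3.20 to 5.84 in the PWK/PhJ Drd1+ libraries and 1.17 to 10.7 in those of the other strains, and in Drd2+ neurons 4.88 to 8.60 against 0.799 to 7.08. The highest strain mean was that of C57BL/6 in Drd1+ (6.77 CPM) and of PWK/PhJ in Drd2+ neurons (6.32 CPM). In Drd1+ neurons 5 of the 12 were higher in CPM in PWK/PhJ than in the other strains pooled and 7 lower. In Drd2+ neurons 7 were higher, 2 lower and 3 at 0 on both sides. The Drd1+ tally gives no direction for genes with few counts, because the PWK/PhJ pool was smaller (11833703 total counts against 92192764). Calcb, Prph, Mrgprd and Pou4f1, tallied as lower, had 0 PWK/PhJ counts against only 1, 4, 4 and 6. Calca, tallied as higher, had 1 against 5. Of the 12 genes, Avil had the most counts. It was lower in PWK/PhJ in both clusters (0.930 against 1.74 CPM in Drd1+ and 0.932 against 1.58 in Drd2+ neurons). Mrgprx1 was higher in both (0.761 against 0.531 CPM and 1.63 against 0.357). Trpv1 had 3 counts in PWK/PhJ and 3 in the other strains in Drd1+ neurons, and 0 against 7 in Drd2+ neurons. Scn11a, the neighbouring gene and another channel of nociceptors, had 24 counts in PWK/PhJ Drd1+ nuclei (2.03 CPM) and 31 in the other 7 strains (0.336 CPM), and 13 against 28 in Drd2+ nuclei (1.51 and 0.385 CPM). WSB/EiJ came next, with 10 counts in Drd1+ (0.840 CPM, exact interval 0.403 to 1.55) and 12 in Drd2+ nuclei (1.11 CPM, 0.576 to 1.95). Both intervals overlap those of PWK/PhJ, 1.30 to 3.02 in Drd1+ and 0.806 to 2.59 in Drd2+ nuclei. Scn11a was too low to enter the test. The summed level of the oligodendrocyte genes Mbp, Mog and Mobp in Drd1+ libraries spanned 1162 to 1254 CPM for PWK/PhJ, against 873 to 1185 for the other strains, and in Drd2+ libraries 1265 to 1403 against 886 to 1250. Scn10a in PWK/PhJ oligodendrocytes themselves was 0.983 CPM, and the part of oligodendrocyte RNA in these libraries was not tested.

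By Pearson correlation of log2 CPM over the 32 Drd1+ libraries, the genes most like Scn10a were 1700047L14Rik (r = 0.96), 4933401D09Rik (0.95), Gm28710 (0.95) and Gm45903 (0.94). All 4 were highest in PWK/PhJ: 4933401D09Rik had a mean of 9.83 CPM there and at most 0.141 in another strain. The correlation describes a split of the 4 PWK/PhJ libraries from the other 28, which share their batches and their reference genome, and it has no test. Around Scn10a on chromosome 9, 33 RefSeq genes lay within 500 kb, of which 26 were in the matrices and 12 reached the test in each projection neuron type. Wdr48 was higher in PWK/PhJ against the other 7 strains (log2 fold change 0.50, adjusted p = 9.47e-05 in Drd1+ and 0.40, adjusted p = 0.00208 in Drd2+ neurons, by edgeR's quasi-likelihood test), as was Mobp (0.15, adjusted p = 0.0299 and 0.17, adjusted p = 0.0437). Mobp is an oligodendrocyte gene (1748 CPM there against 172 in Drd1+ neurons) and one of the 3 summed above. Acaa1a was lower (-0.88, adjusted p = 0.000108 and -0.96, adjusted p = 5.59e-05). These are 3 of 12 genes in each cluster, and the share of all tested genes that changed in PWK/PhJ was 34.3% in Drd1+ and 30.3% in Drd2+ neurons.

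The other 8 members were tested for strain differences with edgeR's quasi-likelihood test on counts summed per mouse, with batch as a block and p-values adjusted over all genes of a cluster. In Drd1+ and in Drd2+ neurons 7 of the 8 passed an adjusted p of 0.05, all but Scn1a. Such calls were common: 61.7% of 13431 genes in Drd1+ and 55.9% of 12799 in Drd2+ neurons passed too. The fitted strain means of the members spanned a median of 0.53 on the log2 scale in Drd1+ neurons, against 0.65 for all tested genes, and 0.49 against 0.64 in Drd2+ neurons. Scn10a passed the filter on low counts in both clusters through its PWK/PhJ libraries and is left out of these counts.

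Scn9a, an alpha subunit that sets the excitability of nociceptors, varied most among the tested members. In Drd1+ neurons NZO/HlLtJ mice had 79.3, 70.6, 94.4 and 104 CPM in batches 1 to 4 and CAST/EiJ mice 21.1, 20.7, 28.1 and 27.0 CPM. The 4 CAST/EiJ mice were below all 28 other mice, and the NZO/HlLtJ mice overlapped only WSB/EiJ, whose mice had 81.7, 60.0, 33.5 and 67.4 CPM. The means were 87.0 ± 14.8 and 24.2 ± 3.85 CPM (SD, n = 4), and the strain term had an adjusted p of 1.68e-06. Against the other 7 strains Scn9a rose in NZO/HlLtJ (log2 fold change 1.02 ± 0.13 SE, adjusted p = 4.19e-06) and fell in CAST/EiJ (-1.12 ± 0.18, adjusted p = 2.40e-05).

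The same strains stood at the ends of the order in Drd2+ neurons. There NZO/HlLtJ mice had 85.4, 39.5, 73.3 and 68.3 CPM and CAST/EiJ mice 20.1, 20.8, 11.9 and 19.5 CPM. NZO/HlLtJ batch 2 lay within the range of other strains, and the lowest A/J and 129S1/SvImJ mice (17.6 and 20.5 CPM) lay within that of CAST/EiJ. The log2 fold change was 1.10 ± 0.16 in NZO/HlLtJ (adjusted p = 1.58e-05) and -1.0 ± 0.22 in CAST/EiJ (adjusted p = 0.00107), with an adjusted p of 2.68e-06 for the strain term. WSB/EiJ was also higher in Drd2+ neurons (0.67, adjusted p = 0.00513), which passed under every alternative run. In Drd1+ neurons the WSB/EiJ call (0.49, adjusted p = 0.0188) was lost without batch 1 (0.24, adjusted p = 0.304), and also without batch 2 or 4, where the log2 fold change stayed at 0.48 and 0.51 (adjusted p = 0.0902 and 0.0923). The 129S1/SvImJ call in Drd1+ neurons (-0.48, adjusted p = 0.0485) was lost without batch 1, 2 or 4 (-0.38, -0.47 and -0.56; adjusted p = 0.107, 0.164 and 0.120) and without the nuclei of the most counts (-0.45, adjusted p = 0.0682). The A/J call in Drd2+ neurons (-0.53, adjusted p = 0.0480) was lost without batch 2 or 4 (-0.36 and -0.45; adjusted p = 0.285 and 0.243). That of NOD/ShiLtJ in Drd2+ neurons (0.56, adjusted p = 0.0306) was lost whichever batch was left out, with log2 fold changes of 0.39 to 0.67 (adjusted p from 0.0522 to 0.128). All 4 NOD/ShiLtJ mice were in the high range of Y-linked counts, and no sex term was fitted, so the part of sex in this call and in those of Scn2a, Scn2b and Scn3b for NOD/ShiLtJ was not tested. The summed level of the projection neuron genes Ppp1r1b, Bcl11b, Pde10a and Rgs9 ran the other way in the same libraries. It went from 3700 CPM in NZO/HlLtJ to 4870 in CAST/EiJ Drd1+ neurons, and Pde10a made up most of it (3032 CPM over all strains). The sum of the interneuron genes (among them Gad2, Nxph1 and Sst) was highest in the same strain as Scn9a, NZO/HlLtJ, but not lowest in the same one. It was 241 CPM in Drd1+ (lowest 195 in 129S1/SvImJ) and 239 CPM in Drd2+ neurons (lowest 197 in C57BL/6). Gad2 made up most of that sum, with 166 CPM in Drd1+ and 164 in Drd2+ neurons over all strains, against 242 in Nxph1+ interneurons. The part of either sum in the Scn9a difference was not tested.

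**Figure D2:**
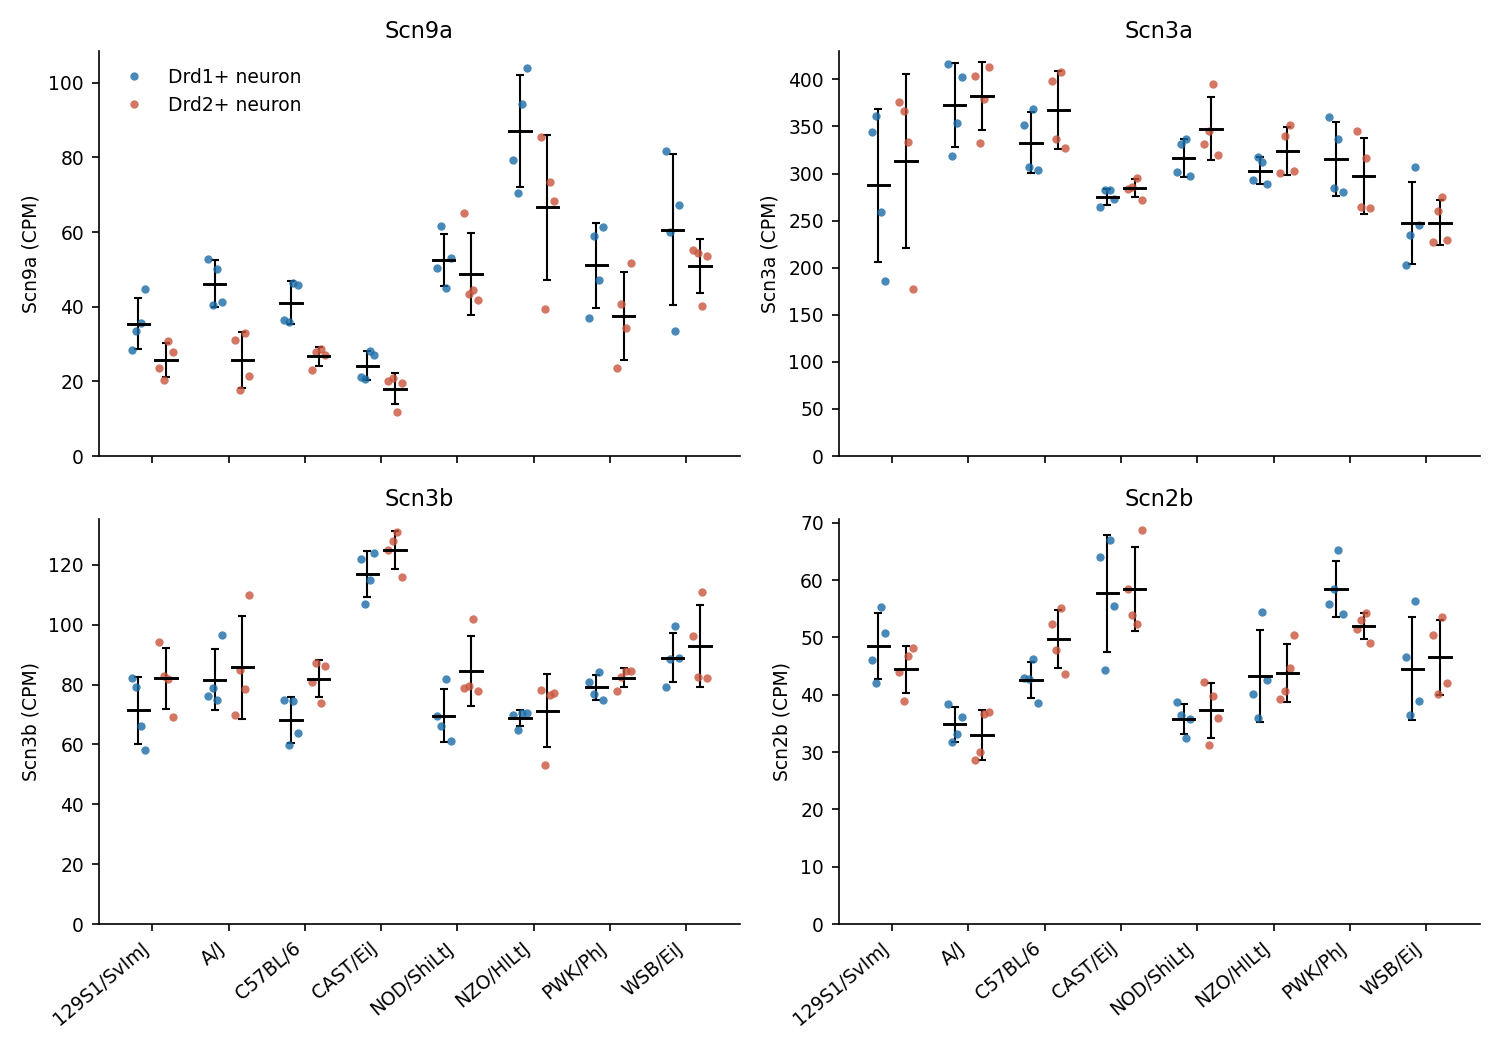
CPM (vertical axes) of Scn9a, Scn3a, Scn3b and Scn2b in each of the 4 mice of each strain (points) in Drd1+ and Drd2+ neurons, with the mean and SD (black). Scn9a is lowest in CAST/EiJ and highest in NZO/HlLtJ, Scn3b is highest in CAST/EiJ, and 1 129S1/SvImJ mouse has the lowest Scn3a level in both clusters.

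Scn3a, the alpha subunit of the developing brain, was highest in A/J and lowest in WSB/EiJ. In Drd1+ neurons A/J mice had 416, 319, 354 and 402 CPM and WSB/EiJ mice 203, 235, 307 and 245 CPM. In Drd2+ neurons A/J mice had 404, 332, 379 and 413 CPM and WSB/EiJ mice 227, 260, 275 and 229 CPM. These 2 strains did not overlap in either cluster, but the lowest value of all 32 mice belonged to neither: the 129S1/SvImJ mouse of batch 4 stood at 186 CPM in its Drd1+ library and at 177 CPM in its Drd2+ library, where the other 129S1/SvImJ mice had 259 to 361 and 333 to 376. The strain term had an adjusted p of 0.0263 in Drd1+ neurons, which became 0.178 without batch 1 and 0.0862 without batch 3. In Drd2+ neurons it was 0.00339, and 0.0907 without batch 3. Against the other 7 strains Scn3a rose in A/J (log2 fold change 0.34, adjusted p = 0.0236 and 0.31, adjusted p = 0.0245) and fell in WSB/EiJ (-0.35, adjusted p = 0.0334 and -0.41, adjusted p = 0.00587). Without batch 1 all 4 of these calls were lost, at log2 fold changes of 0.29 and 0.31 for A/J (adjusted p = 0.122 and 0.0748) and of -0.23 and -0.34 for WSB/EiJ (adjusted p = 0.269 and 0.0629). The A/J calls were also lost without batch 3, where the log2 fold changes were 0.39 and 0.36 (adjusted p = 0.0566 and 0.0945), and without batch 4, where they were 0.25 and 0.20 (adjusted p = 0.107 and 0.0547). The WSB/EiJ calls were lost without batch 2 in Drd1+ (-0.32, adjusted p = 0.110) and without batch 3 in Drd2+ neurons (-0.42, adjusted p = 0.0653). In the same WSB/EiJ Drd1+ libraries the fibroblast genes Dcn, Col1a2 and Lum summed to a mean of 60.9 CPM, against 0.961 in CAST/EiJ, and in Drd2+ libraries to 57.8 CPM, against 0.694 in PWK/PhJ. In fibroblasts over all strains Dcn, Col1a2 and Lum stood at 1146, 465 and 181 CPM, against 7.35, 0.404 and 5.70 CPM for the same genes in Drd1+ neurons. Their part in this and in the other WSB/EiJ calls (Scn9a, Scn8a and Scn4b) was not tested.

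The 3 main alpha subunits of the adult brain varied within narrow limits. Scn2a, which serves the axon initial segment, was highest in CAST/EiJ and lowest in NOD/ShiLtJ. CAST/EiJ Drd1+ neurons had 533, 546, 590 and 577 CPM and NOD/ShiLtJ ones 458, 415, 430 and 466 CPM, with no overlap of these 2 strains. Against the other 7 strains the log2 fold change was 0.17 in CAST/EiJ (adjusted p = 0.00251) and -0.22 in NOD/ShiLtJ (adjusted p = 0.000724), and the strain term had an adjusted p of 0.000479. In Drd2+ neurons the strain term passed (adjusted p = 0.00621, and 0.0742 without batch 4). The 2 contrasts there, 0.14 in CAST/EiJ (adjusted p = 0.0389) and -0.15 in NOD/ShiLtJ (adjusted p = 0.0419), were lost whichever batch was left out, at adjusted p values from 0.0828 to 0.164 and from 0.0626 to 0.238, while the log2 fold changes stayed at 0.12 to 0.15 and at -0.18 to -0.13. They were also lost without the batch block (0.0974 and 0.123) and without the filter on low counts (0.273 and 0.153).

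Scn8a, the alpha subunit of mature initial segments and nodes, was also highest in CAST/EiJ. In Drd1+ neurons CAST/EiJ mice had 362, 372, 353 and 337 CPM and WSB/EiJ mice 315, 281, 283 and 266 CPM. The 2 strains did not overlap, and the log2 fold change was 0.20 in CAST/EiJ (adjusted p = 0.00127) and -0.16 in WSB/EiJ (adjusted p = 0.0277, and 0.0512 to 0.191 without batch 2, 3 or 4, 0.0899 without the batch block and 0.0961 without the filter on low counts, at log2 fold changes of -0.16 to -0.13). In Drd2+ neurons CAST/EiJ was again higher (0.17, adjusted p = 0.00664, and 0.136 without the filter) and NZO/HlLtJ lower (-0.17, adjusted p = 0.0107, and 0.104 or 0.101 without batch 2 or 4 and 0.114 without the filter). The strain term passed in both clusters (adjusted p = 0.00209 and 0.00400) but not without batch 2 (0.0542 and 0.0689), nor in Drd2+ neurons without batch 4 (0.103) or without the filter (0.138). The 4 summed projection neuron genes were highest in CAST/EiJ too and lowest in NZO/HlLtJ (4870 against 3700 CPM among Drd1+ libraries, and 5174 against 3928 among Drd2+ libraries). Their part in the CAST/EiJ calls of Scn2a, Scn8a, Scn2b and Scn3b and in the lower NZO/HlLtJ calls of Scn8a, Scn3b and Scn4b was not tested. Scn1a, the alpha subunit that fast-spiking interneurons depend on, did not pass (adjusted p = 0.137 in Drd1+ and 0.266 in Drd2+ neurons). Its Drd1+ strain means ran from 318 ± 28.0 CPM in C57BL/6 to 365 ± 24.2 CPM in PWK/PhJ (SD, n = 4), and the mice of these 2 strains overlapped.

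Among the beta subunits Scn3b showed the clearest strain. In Drd1+ neurons CAST/EiJ mice had 122, 107, 115 and 124 CPM, all above the 28 other mice, of which the highest was a WSB/EiJ mouse at 99.5 CPM. In Drd2+ neurons they had 125, 128, 131 and 116 CPM, again above all others. Scn3b, a beta subunit that binds the channel without a covalent bond, stood at 117 ± 7.56 CPM in CAST/EiJ Drd1+ neurons against 75.4 ± 10.4 in the other mice. The log2 fold change was 0.64 ± 0.070 (SE, adjusted p = 3.81e-10) in Drd1+ and 0.59 ± 0.086 (adjusted p = 7.27e-07) in Drd2+ neurons, and the strain term had adjusted p values of 5.67e-09 and 2.40e-05. The lower calls were smaller: C57BL/6 (-0.24, adjusted p = 0.0241), NOD/ShiLtJ (-0.23, adjusted p = 0.0404) and NZO/HlLtJ (-0.23, adjusted p = 0.0255) in Drd1+ neurons, and NZO/HlLtJ (-0.32, adjusted p = 0.0116) in Drd2+ neurons. All 4 were lost without batch 2 (log2 fold changes of -0.19, -0.22, -0.22 and -0.22; adjusted p = 0.215, 0.153, 0.116 and 0.200), and the 3 in Drd1+ neurons also without the batch block (0.0531, 0.0771 and 0.0553, at the same log2 fold changes) and without at least 1 other batch (-0.23 to -0.17; adjusted p from 0.0681 to 0.203). The NOD/ShiLtJ call was lost in DESeq2 too (0.0712). The CAST/EiJ libraries also had the highest summed level of the macrophage genes Csf1r, Cx3cr1, C1qa and P2ry12. It was 59.5 CPM in Drd1+ libraries (against 42.8 in 129S1/SvImJ) and 55.6 CPM in Drd2+ libraries (against 38.3 in 129S1/SvImJ). Scn3b in the macrophage cluster was 6.90 ± 9.37 CPM (SD, n = 32), and the part of macrophage RNA in the CAST/EiJ calls was not tested.

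Scn2b, which is held to the alpha subunit by a disulfide bond, was high in PWK/PhJ and CAST/EiJ and low in A/J and NOD/ShiLtJ. In Drd1+ neurons PWK/PhJ mice had 55.9, 58.5, 65.3 and 54.1 CPM, CAST/EiJ mice 64.1, 44.3, 67.0 and 55.5 CPM, and A/J mice 38.4, 31.7, 33.1 and 36.1 CPM. A/J lay below both. The log2 fold changes in Drd1+ neurons were 0.43 in PWK/PhJ (adjusted p = 2.27e-05), 0.40 in CAST/EiJ (adjusted p = 8.43e-05), -0.41 in A/J (adjusted p = 0.000178) and -0.35 in NOD/ShiLtJ (adjusted p = 0.00466, and 0.0781 without batch 3). In Drd2+ neurons A/J mice had 28.6, 30.0, 36.6 and 37.0 CPM and CAST/EiJ mice 58.5, 54.0, 52.4 and 68.7 CPM, without overlap. There the log2 fold changes were -0.51 in A/J (adjusted p = 1.49e-05), 0.44 in CAST/EiJ (adjusted p = 5.11e-05), -0.32 in NOD/ShiLtJ (adjusted p = 0.0112) and 0.24 in PWK/PhJ (adjusted p = 0.0269). The NOD/ShiLtJ call was lost without batch 2 or 4 (adjusted p = 0.134 and 0.0695), and that of PWK/PhJ without batch 1, 2 or 3 (0.0689, 0.227 and 0.0697) without the batch block (0.0533) and without the filter (0.135). The strain term had adjusted p values of 8.54e-08 and 3.22e-07.

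Scn4b, the beta subunit whose tail can supply the blocking particle of resurgent sodium current, lies beside Scn2b (chr9:45117876-45130070) on chromosome 9, at chr9:45138624-45154155. The strains ran in another order for it. A/J, the lowest strain for Scn2b, was the highest for Scn4b: its Drd1+ neurons had 170, 155, 151 and 157 CPM, against 110, 108, 122 and 120 CPM in WSB/EiJ, with no overlap of these 2 strains. Scn4b rose in A/J (log2 fold change 0.28, adjusted p = 0.00115) and fell in WSB/EiJ (-0.26, adjusted p = 0.00709). In Drd2+ neurons A/J mice again had the highest mean (147, 156, 147 and 153 CPM), but its contrast with the others did not pass (0.18, adjusted p = 0.0506). PWK/PhJ (-0.23, adjusted p = 0.00970) and NZO/HlLtJ (-0.21, adjusted p = 0.0218) were lower there. The first was lost without batch 2 or 4 (adjusted p = 0.0834 and 0.132), and the second without batch 1 (-0.14, adjusted p = 0.321), without the batch block (0.0598) and without the filter (0.0730). The strain term had adjusted p values of 0.000376 and 0.000563. The summed indirect pathway genes Drd2, Adora2a, Penk and Gpr6 were highest in A/J among Drd1+ libraries (217 CPM, against 99.0 in 129S1/SvImJ). Among Drd2+ libraries they were lowest in A/J (1654 CPM, against 2101 in NOD/ShiLtJ). Their part in the A/J calls of Scn3a, Scn9a, Scn2b and Scn4b was not tested.

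**Figure D3:**
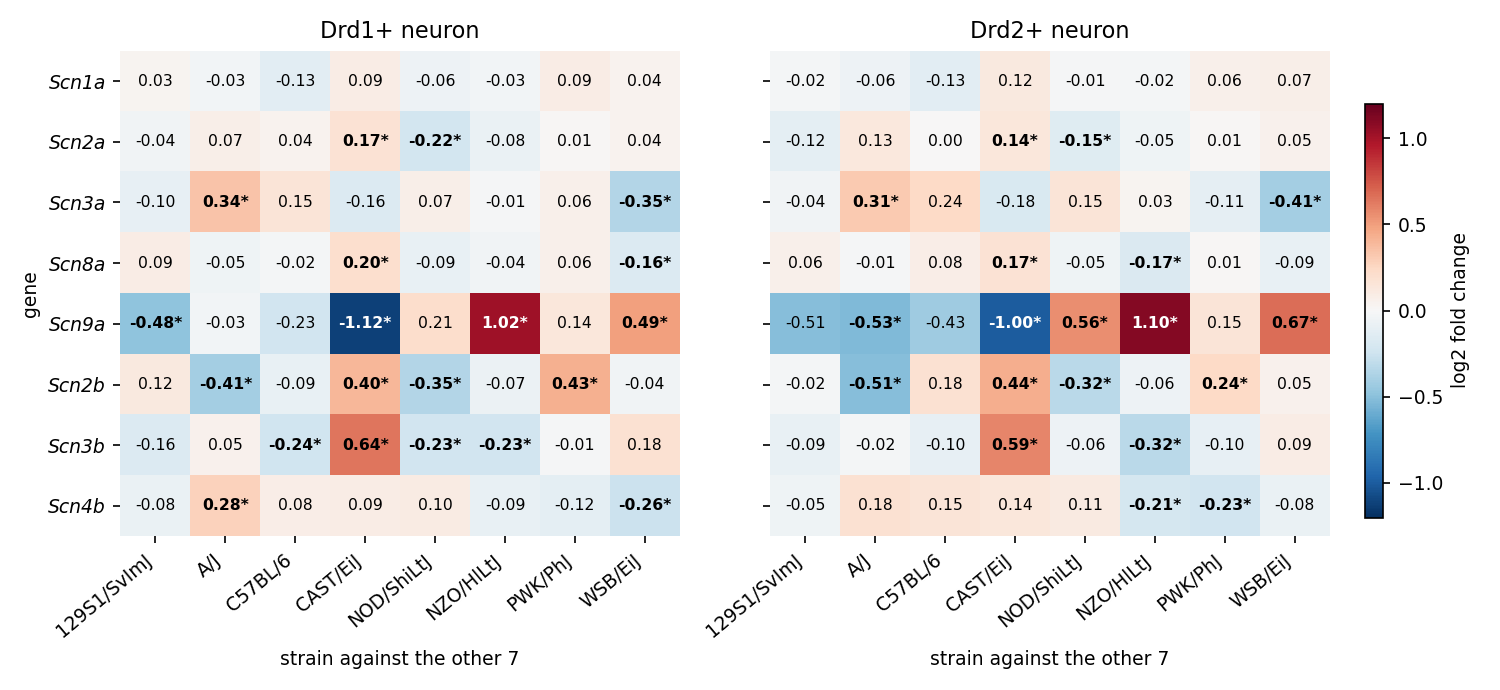
Log2 fold change (colour and printed value) of each of the 8 tested members (rows) in each strain against the other 7 (columns), in Drd1+ and Drd2+ neurons. Bold values with a star passed an adjusted p of 0.05, 20 of 64 in Drd1+ and 19 of 64 in Drd2+ neurons, with the largest for Scn9a in CAST/EiJ (-1.12) and NZO/HlLtJ (1.10).

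Counted by strain, CAST/EiJ had the most members called: 5 of 8 in Drd1+ neurons (4 higher, 1 lower), where 32.8% of all tested genes passed in that contrast, and 5 of 8 in Drd2+ neurons, where 28.1% did. In Drd1+ neurons WSB/EiJ had 4 of 8 (17.0% of all genes), A/J 3 (17.2%), NOD/ShiLtJ 3 (15.9%), NZO/HlLtJ 2 (19.7%), and 129S1/SvImJ (12.3%), C57BL/6 (13.9%) and PWK/PhJ (34.3%) had 1 each. In Drd2+ neurons NZO/HlLtJ had 4 of 8 (18.5%), A/J 3 (15.2%), NOD/ShiLtJ 3 (12.1%), WSB/EiJ 2 (15.3%) and PWK/PhJ 2 (30.3%). C57BL/6 and 129S1/SvImJ had 0 there (11.1% of all genes each). The contrasts share mice, since each strain is in the comparison group of every other, so the counts are not independent.

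An interaction term, fitted over both clusters of the same mice, tested whether a strain difference was unequal in the 2 neuron types. No member passed (0 of 8 in edgeR and 0 of 8 in DESeq2), against 4.58% of all 13791 genes, and 4 members had an unadjusted p below 0.05 (Scn3a, Scn9a, Scn4b and Scn8a). The adjusted p for Scn9a was 0.231 but became 0.0199 without batch 1 and 0.000156 without the filter on low counts, so this result depends on those choices. Within a mouse Scn9a was lower in Drd2+ than in Drd1+ neurons in 28 of 32 mice, by a mean log2 ratio of -0.45 ± 0.38 (SD), a ratio of 0.731. Scn2a was lower in Drd2+ neurons in 30 of 32 mice by a small and even amount (-0.10 ± 0.06). Scn3b was higher there in 25 of 32 mice (0.13 ± 0.18), as were Scn1a and Scn3a in 23 of 32 each (means of 0.06). Scn2b was higher in 16 and lower in 16. From unscaled CPM these members had the same means. The clusters were formed from the same RNA, so these ratios carry no test.

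**Figure D4:**
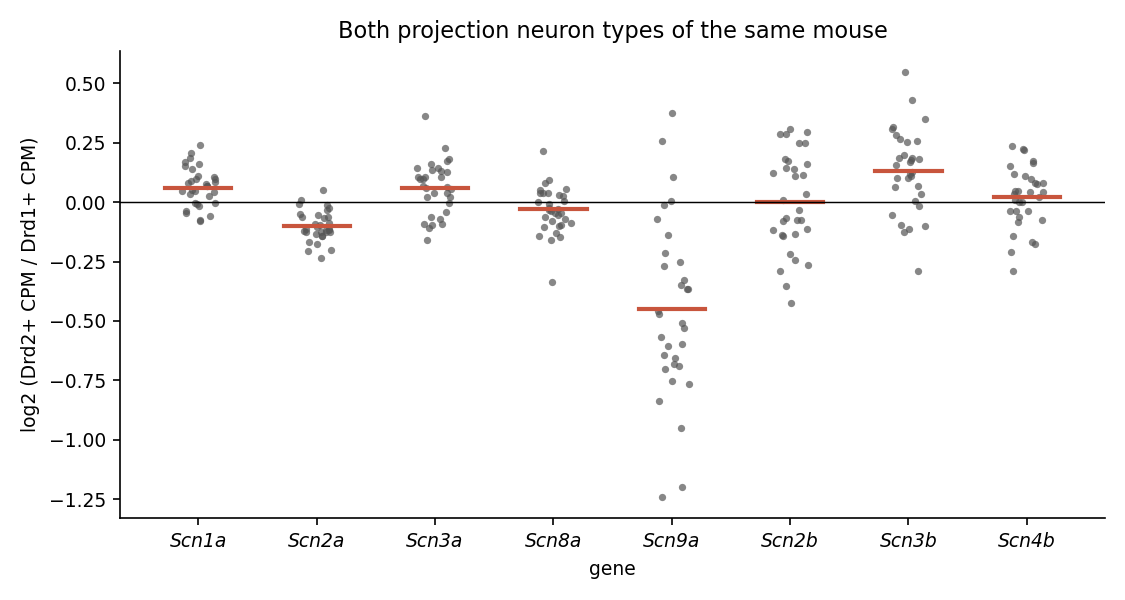
Log2 ratio of CPM in Drd2+ to Drd1+ neurons of the same mouse (vertical axis) for each tested member, with 1 point for each of the 32 mice and the mean as a red bar. Scn9a lies lowest, with a mean of -0.45, and the other means lie between -0.10 and 0.13.

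Across the 18 clusters the members fell into different patterns, given here as means of CPM over the mice with at least 10 nuclei in a cluster and with no test. Scn9a was highest in interneurons: Sst+ interneurons had 278 ± 216 CPM (SD, n = 2), Chat+ interneurons 135 ± 58.3 (n = 3) and Nxph1+ interneurons 127 ± 54.7 (n = 32), overlapping each other. Next came Drd1+ (49.8 ± 20.9) and Drd2+ neurons (37.6 ± 18.5, both n = 32), which overlapped each other. Single Drd1+ libraries (19.8 to 103 CPM) also overlapped those of Nxph1+ interneurons (42.0 to 298 CPM). In the excitatory Slc17a7+ neurons Scn9a was 6.41 ± 5.33 CPM (n = 20), and in oligodendrocytes, astrocytes and macrophages 0.510, 0.899 and 0.424 CPM. Scn1a was highest in Nxph1+ interneurons (435 ± 118), which overlapped Drd2+ neurons (359 ± 32.4), Drd1+ neurons (344 ± 24.9) and Drd1+ neuron_2 (344 ± 50.1). Scn8a had its highest means in Slc17a7+ neurons (391 ± 34.5, n = 20) and Slc17a7+ neuron_2 (386 ± 50.9, n = 16). Drd1+ (313 ± 23.1) and Drd2+ neurons (306 ± 20.3) followed, and Slc17a7+ neuron_2 overlapped Drd1+ neurons. Scn8a was lower in Drd1+ neuron_2 (215 ± 40.5). Scn2a differed little between neuron clusters, from 557 ± 86.3 CPM in Slc17a7+ neurons to 426 ± 29.0 in Chat+ interneurons. Scn3a had 304 to 325 CPM in the 3 projection neuron clusters and 166 ± 31.8 in Slc17a7+ neurons.

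Scn4b had its highest means in the 2 main projection neuron clusters, 136 ± 16.1 CPM in Drd2+ and 134 ± 16.3 in Drd1+ neurons. Mural cells came next at 91.9 ± 50.6 (n = 20), and their libraries (0 to 185 CPM) overlapped both. Scn4b had 66.2 ± 24.1 CPM in Drd1+ neuron_2, 66.1 ± 32.3 in ependyma (n = 12), 27.9 ± 18.2 in Nxph1+ interneurons and 9.82 ± 9.56 in Chat+ interneurons (n = 3). Over the 18 clusters the genes closest to it were Syndig1l (Pearson r of log2 CPM 0.93), Gng7 (0.90), a G protein subunit gene of striatal neurons, and Tmem158 (0.89). Scn3b had its highest mean in Sst+ interneurons (108 ± 5.95 CPM, n = 2), which overlapped Drd2+ neurons (87.7 ± 17.6). From pooled counts Sst+ interneurons stood lower, at 66.6 CPM against 86.6 in Drd2+ neurons. Scn3b had 80.2 ± 16.8 CPM in Drd1+ neurons, 35.8 ± 25.7 in Nxph1+ interneurons and 6.90 to 8.96 in the 3 glial clusters. Scn2b had 45.6 ± 10.7 CPM in Drd1+ neurons and 31.7 ± 9.14 in oligodendrocytes. Among the clusters with 32 mice its means ran from 25.6 ± 15.7 in macrophages to 49.4 ± 14.8 in Drd1+ neuron_2. Over all clusters they ran from 0 in fibroblasts (n = 2) to 60.8 ± 53.0 in mural cells (n = 20). The fibroblast mean rests on 2 libraries that held none of that cluster's 13 Scn2b counts. From pooled counts Scn2b was 51.2 CPM in fibroblasts, against 44.2 in Drd1+ neurons. For Scn9a the closest gene by cluster was Nkain3 (0.96), for Scn1a Cntnap5b (0.99), for Scn2a A230006K03Rik (0.98), for Scn3a Lrrc7 (0.96), for Scn8a Grin2b (0.96), for Scn3b Gm13944 (0.95) and for Scn2b 2810032G03Rik (0.82). These correlations are over 18 clusters that share libraries and differ in depth.

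**Figure D5:**
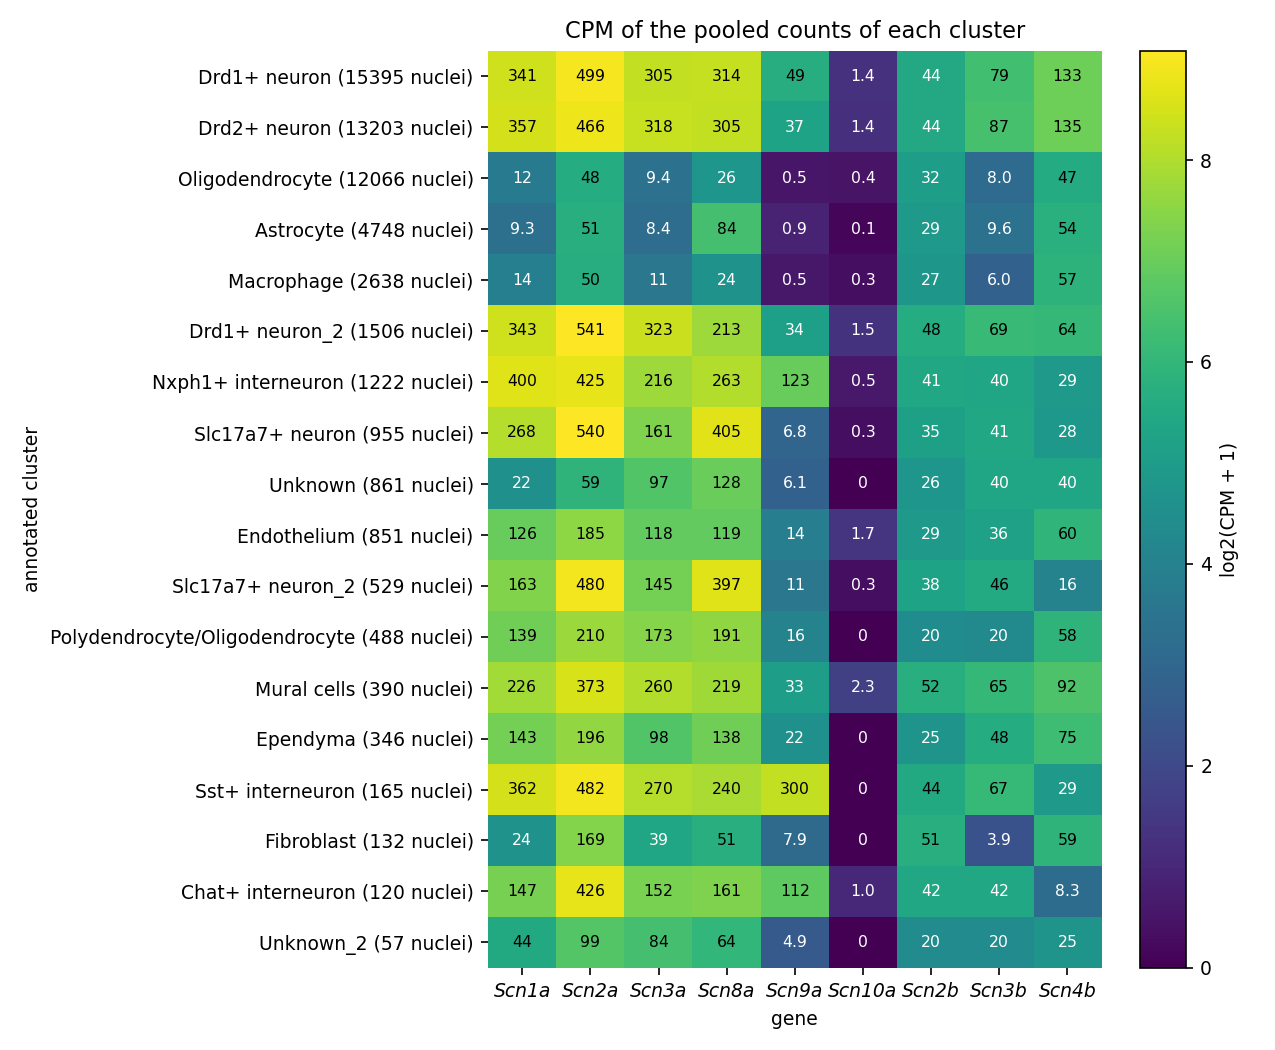
CPM of the pooled counts of each of the 18 clusters (rows, with their nuclei) for the 9 members (columns), printed in each cell and coloured by log2(CPM + 1). Scn9a is highest in Sst+ interneurons, Scn4b in Drd1+ and Drd2+ neurons, and Scn10a is near 0 in every cluster when all strains are pooled. Colours are to be compared within a column, since counts are not per length.

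Counts of members in glia differed from gene to gene. The pooled CPM of Scn9a in oligodendrocytes was 0.963% of that in Drd1+ neurons, that of Scn3a 3.08% and that of Scn2a 9.67%, and the 4 summed projection neuron genes stood at 7.21%. Scn4b was at 35.5% in oligodendrocytes, 40.4% in astrocytes and 42.7% in macrophages, and Scn2b at 73.6%, 65.6% and 60.7%. Scn8a stood at 26.8% in astrocytes but 8.43% in oligodendrocytes. The share of RNA from other cells in these glial counts was not tested.

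The strain term was tested in 7 further clusters, where fewer members and fewer genes reached the test. In oligodendrocytes 1 of 5 tested members passed, with 34.8% of all tested genes: Scn8a (adjusted p = 0.000485), at a mean of 46.2 CPM in C57BL/6 and 16.7 in CAST/EiJ. In projection neurons CAST/EiJ had the highest Scn8a mean. Without the nuclei of the most counts, which may hold doublets, its adjusted p was 0.475. In Drd1+ neuron_2 1 of 8 passed, with 17.3% of all genes: Scn4b (adjusted p = 0.0227), at 104 CPM in NOD/ShiLtJ and 42.8 in PWK/PhJ. It was lost whichever batch was left out (adjusted p from 0.0551 to 0.0976), in DESeq2 (0.0672) and without the nuclei of the most counts (0.128). By edgeR no member passed in astrocytes (0 of 4, with 21.5% of all genes; 2 at an unadjusted p below 0.05), macrophages (0 of 2, 24.8%) or Nxph1+ interneurons (0 of 5, 1.53%). None passed either in endothelium (0 of 5, 3.23%; Scn3a had an unadjusted p of 0.0254, and passed without the filter, adjusted p = 0.0469) or in the cluster named Polydendrocyte/Oligodendrocyte (0 of 4, 1.24%). In astrocytes Scn8a passed without batch 4 (adjusted p = 0.0415) and without the filter (0.0253), as did Scn2b without batch 4 (0.0498).

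The rest of the family and the proteins that bind the channels gave the setting. Of 7 further genes of the family and of the related sodium leak channel, 4 could be tested (Nalcn, Unc79, Unc80 and Fam155a), and 4 passed the strain term in Drd1+ and 3 in Drd2+ neurons, beside 61.7 and 55.9% of all genes. Fam155a, a subunit of the leak channel, had 340 CPM in NOD/ShiLtJ and 158 in C57BL/6 Drd1+ neurons (adjusted p = 0.00508), and was the gene that did not pass in Drd2+ neurons (adjusted p = 0.0673). Scn7a, the sodium sensor of glia, had its highest mean in ependyma, where the values of 12 mice ran from 0 to 213 CPM and overlapped those of the next cluster. In projection neurons it had few counts and was highest in PWK/PhJ, with 13 counts in Drd1+ (1.10 CPM, next CAST/EiJ at 0.960) and 14 in Drd2+ nuclei (1.63 CPM, next 129S1/SvImJ at 0.702). Of 18 genes for partners at the axon initial segment and node, 17 were tested, and 16 passed in Drd1+ and 14 in Drd2+ neurons. PWK/PhJ was higher for 2 and lower for 8 of the 17 in Drd1+ neurons (34.3% of all genes called) and higher for 2 and lower for 7 in Drd2+ neurons (30.3%), with median log2 fold changes of -0.07 and -0.14. In the same libraries the strain means of the summed oligodendrocyte, astrocyte and mural cell genes were highest in PWK/PhJ in both clusters. Their part in these and the other PWK/PhJ calls was not tested.

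The partner Ank3, the scaffold that anchors sodium channels at the initial segment, was lower in PWK/PhJ (log2 fold change -0.31, adjusted p = 4.68e-07 in Drd1+ and -0.42, adjusted p = 3.49e-10 in Drd2+ neurons). It was chosen for naming after its values were seen. Fgf13, a cytoplasmic factor that binds the channel tail, spanned 124 CPM in NZO/HlLtJ to 51.6 in PWK/PhJ in Drd1+ neurons (strain term, adjusted p = 4.94e-06) and 154 in NZO/HlLtJ to 58.4 in 129S1/SvImJ in Drd2+ neurons (adjusted p = 1.70e-07). Its relative Fgf11 spanned 12.3 in C57BL/6 to 5.21 in CAST/EiJ (adjusted p = 6.00e-07) and 13.9 to 4.22 in the same strains in Drd2+ neurons (adjusted p = 0.000127). Camk2d, a kinase that phosphorylates the channel, was 29.7 CPM in NOD/ShiLtJ and 6.33 in CAST/EiJ Drd1+ neurons (adjusted p = 5.71e-08). In Drd2+ neurons it was 12.2 CPM in PWK/PhJ and 3.67 in WSB/EiJ (adjusted p = 0.000261). Rangrf, a trafficking partner of sodium channels, was 6.12 CPM in PWK/PhJ and 2.03 in NOD/ShiLtJ Drd1+ neurons (adjusted p = 0.00566), and did not pass in Drd2+ neurons (adjusted p = 0.262), where CAST/EiJ was highest at 6.22 CPM.

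Beside the channel cluster on chromosome 2 (Scn3a, Scn2a, Scn1a and Scn9a), 2 of 7 listed genes were tested, and both passed the strain term in both clusters. One of these, Ttc21b, a gene of cilium transport, shared its lowest strain with Scn9a: CAST/EiJ had 15.2 CPM and NZO/HlLtJ 39.4 in Drd1+ neurons (adjusted p = 8.60e-12), and in Drd2+ neurons CAST/EiJ had 14.9 and A/J 37.4 (adjusted p = 7.26e-09). Scn1a, in the same cluster, did not pass, and Scn2a was highest in CAST/EiJ. Of 18 listed neighbours of Scn10a, 8 were tested, and 5 passed in Drd1+ and 3 in Drd2+ neurons, beside 61.7 and 55.9% of all genes.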

How the data were processed

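Nuclei of frozen striatum were profiled with the 10x Multiome assay, and per the submitters' processing notes reads were handled with bcl2fastq 2.20.0.422 and Cell Ranger ARC 2.0.0 on mm10 (GRCm38). The deposited matrices hold whole UMI counts per gene and barcode, not normalized. Reads of all strains were thus compared with the C57BL/6J reference, and the effect of sequence differences on the counts was not tested. The table of nuclei that the authors deposited gives categories (other than numbers): batch, strain and cluster of 55672 nuclei. Per the deposited file of descriptions the authors ran Demuxlet and DoubletFinder, and every annotated nucleus is a singlet in their calls. No further caller was run, and nuclei above the 95th percentile of counts were left out as an alternative. The peak list that the authors deposited gives positions only.

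Counts were summed per mouse and cluster, libraries under 10 nuclei were dropped, and clusters keeping at least 3 mice of each strain were fitted with edgeR 4.0.16 (R 4.3.3, limma 3.58.1; filterByExpr, TMM, robust quasi-likelihood test, batch as a block, Benjamini-Hochberg over all genes). Batches pair the mice because each pooled 1 mouse of every strain, per the labels. No sex term was fitted. Fits were tested on simulated data. Alternatives were DESeq2 1.42.0, its size factors, no filter, no block, each batch left out, at least 20 nuclei and the trimming. Tables used Python 3.11.15, numpy 2.4.6, scipy 1.17.1 and pandas 2.3.3. Intervals (95%) cover counting error only, and a count of 0 is bounded by 3 counts. The 4 mice of a strain are separate animals.

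Members and lists were chosen with earlier results of these data known. The text names all members. Of the lists (family, partners, neighbours) it names genes called with strain means spanning at least 1 on the log2 scale, with Nalcn's relatives listed only as tested. Ank3, Wdr48, Mobp, Acaa1a, Scn7a, Scn11a and single sensory neuron genes fall outside this rule and were named after their values were seen. Likeness is the Pearson r of log2 CPM, with 4 of the 5 closest genes given for Scn10a and the closest 1 to 3 of 3 for other members, among genes of at least 10 CPM in a cluster. Some genes of these lists are not reported here.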

Additional observations from a re-analysis of the deposited data

Results flagged for a closer look

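In each strain the 4 mice were compared with each other. In 12 of 130 groups a mouse's gap to the nearest other, as a share of the range, was above Dixon's 95% critical value for 4 samples. For independent groups of normally distributed values chance gives about 1 in 20. These groups share mice and libraries, so their number is not read as an excess. In Drd1+ neurons the 129S1/SvImJ mouse of batch 3 had 524 CPM of Scn2a, where the other 3 had 481 to 484. The C57BL/6 mouse of batch 4 had 287 CPM of Scn8a (others 317 to 322), the NZO/HlLtJ mouse of batch 2 had 64.8 CPM of Scn3b (69.7 to 70.6) and the CAST/EiJ mouse of batch 3 had 156 CPM of Scn4b (134 to 138). In Drd2+ neurons the 129S1/SvImJ mouse of batch 4 stood apart for 2 alpha subunits, high for Scn1a at 391 CPM (343 to 348) and low for Scn2a at 421 CPM (442 to 445). The PWK/PhJ mouse of batch 1 had 332 CPM of Scn8a, where the others had 301 each.

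Scn9a was marked in 3 strains in Drd2+ neurons: the CAST/EiJ mouse of batch 3 was low at 11.9 CPM (19.5 to 20.8), the NOD/ShiLtJ mouse of batch 1 high at 65.2 CPM (41.8 to 44.5) and the WSB/EiJ mouse of batch 3 low at 40.1 CPM (53.7 to 55.2). Scn3b was marked in 2 more: the NOD/ShiLtJ mouse of batch 3 at 102 CPM (78.0 to 79.5) and the NZO/HlLtJ mouse of batch 2 at 53.0 CPM (76.5 to 78.3), the same mouse that was lowest of its strain for Scn3b in Drd1+ neurons.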

How the results depend on the processing

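With each batch left out in turn, the strain term called 6 to 7 of 8 members in Drd1+ and 5 to 7 in Drd2+ neurons, and the 64 strain contrasts gave 13 to 16 calls in Drd1+ (20 with all batches) and 10 to 14 in Drd2+ neurons (19 with all). The 7 further clusters gave 1 to 3 calls of the strain term (2 with all batches) and the interaction 0 to 1 (0 with all batches). In the further clusters there were 4 calls without the filter, over 56 tests in place of 33, 1 in DESeq2 and 0 without the nuclei of the most counts, and the interaction gave 1 call (Scn9a) without the filter; the causes were not tested. Without the replicate block of batch, the strain term called 7 members in each projection neuron type and 2 in the further clusters, the interaction 0, and the contrasts 16 in Drd1+ and 15 in Drd2+ neurons. The share of all genes called in these alternative runs is not given, and leaving out a batch leaves fewer mice of each strain. The changes in these counts are therefore not read as particular to the members.

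No log2 fold change of a called contrast changed sign under any alternative run: 320 of these values kept their side of the threshold and 70 lost it. The calls of Scn9a and Scn3b in CAST/EiJ and of Scn9a in NZO/HlLtJ passed under every alternative run in both clusters. The mean Scn10a level of PWK/PhJ ranged from 9.39 to 12.9 CPM in Drd1+ and from 11.2 to 14.2 in Drd2+ neurons. From pooled counts in place of the mean over mice, Scn10a was 2.28 CPM in mural cells and 1.04 in Chat+ interneurons. The minimum of 20 nuclei could not be fitted for the Polydendrocyte/Oligodendrocyte cluster. The Scn10a shares of nuclei depend on depth: they were 2.20 and 2.03% when nuclei were thinned to 2000 counts.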
